A study of Arabidopsis thaliana with 28 samples.

Results

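The comparison described here sets wild-type Arabidopsis thaliana seedlings (accession Col-0) kept with abscisic acid (ABA) for 12 h against seedlings kept with an ethanol mock for 12 h. It was chosen by treatment and time, and takes in 4 of the 28 libraries of a series that followed both treatments over 0.5, 1, 3, 6, 9, 12 and 24 h. The 4 libraries at 3 h, again 2 with ABA and 2 with mock, serve as the earlier time against which changes of direction were read. Each time had its own mock, so the comparisons at different times share no library. The sources used here do not give the ABA dose, the age of the seedlings, the hour of collection, or whether the 2 libraries of a group came from separate cultures. Whole seedlings were taken, so that fewer cells of a type and less RNA per cell cannot be told apart.

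ABA is the hormone that land plants make when water is short. It binds receptors of the PYR/PYL family, which then hold clade A PP2C phosphatases inactive and so free SnRK2 kinases to switch on bZIP transcription factors of the ABF group. Those factors bind ACGTG-containing promoter elements of genes for protective proteins, and ABA is also known to close stomata, slow growth, hold back seed germination, promote leaf ageing and lower the expression of chloroplast genes.

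The authors deposited 1 level per gene and group, as FPKM, which are fragments scaled to transcript length and library size. By the column names each level covers both libraries of a group, which are called a pool here. No value below therefore has a replicate error, and no test at 12 h could be made from the table. "Called" means marked as significant by the authors' deposited table, and "rose" and "fell" are used of called genes alone. Differences are ABA minus mock on the log2(FPKM + 1) scale, over the 20034 genes that reached 1 FPKM in at least 2 of the 14 pools of the series. That scale understates the change of genes near 0 FPKM. The steps between low values implied the same depth for both 12 h pools. Levels scaled to a common library size would give this too, so it does not show equal sequencing depth. The pools summed to 1015305 FPKM with ABA and 903608 FPKM in mock.

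Markers of green shoot, root and guard cells were present. The 5 green shoot markers summed to 33690 FPKM with ABA and 22900 FPKM in mock. The 6 root markers summed to 1201 FPKM with ABA and 1594 FPKM in mock, most of it from the root glucosidase gene BGLU23. Of these 6, however, 4 had higher values with ABA (median difference 0.09), and 1 was called, as lower. The 4 guard cell markers summed to 20.04 FPKM with ABA and 31.46 FPKM in mock, and FAMA and MYB60 among them fell by the authors' deposited table. The floral genes AP3, PI and AG stayed under 1 FPKM in both 12 h pools, and SEP3 stood at 0.944 FPKM with ABA and 2.97 FPKM in mock. Whether these marker differences reflect a change in the share of tissues, and its part in the results below, was not tested.

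At 12 h the response to ABA was broad, and protective genes of dehydration and of the seed were among the largest rises. The authors' deposited table called 3754 genes higher (18.7% of those tested) and 3596 lower (17.9%). Of these, 1381 were higher (6.89%) and 1010 lower (5.04%) by at least 2-fold. When each pool was scaled to the same total, the 2-fold counts became 1119 higher and 1357 lower. That scaling shifted the median difference of all genes to -0.16, against -0.01 as deposited, so small differences have to be read against it.

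The 10 largest called rises included 5 genes annotated for LEA proteins or dehydrins, which shield other proteins and membranes as cells dry. The largest was AT2G37870, annotated in the lipid transfer protein family, at 1199 FPKM with ABA and 2.12 FPKM in mock, a difference of 8.59. LEA7 stood at 1414 FPKM with ABA and 4.27 FPKM in mock, a difference of 8.07. The dehydrin gene RAB18 stood at 1772 FPKM with ABA and 6.70 FPKM in mock. RD29B, a classical ABA marker, stood at 328 FPKM with ABA and 0.444 FPKM in mock. All 20 genes of the LEA, dehydrin and cold-regulated list were called higher by the authors' deposited table, with a median difference of 3.73. LEA4-5 and the LEA family genes AT3G02480 and AT3G17520 were also among the 10 largest rises by rule, with differences of 7.57, 7.80 and 7.54. The others were KIN1 at 6.54, LTP3 at 6.65, and TSPO, a membrane protein taken up for degradation after stress, at 6.72. KIN1 and LTP3 have near-identical copies, KIN2 and LTP4, between which fragments may have been split. LTP4 had the largest difference of all uncalled genes, with 1947 FPKM with ABA and 0.187 FPKM in mock.

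Seed genes moved with them. The authors' deposited table called 6 of 10 tested genes of the seed list higher and none lower. EM6, a LEA protein of the dry embryo, had a difference of 5.81, and OLEO2, a coat protein of oil bodies, stood at 83.3 FPKM with ABA and 1.51 FPKM in mock. PER1, a seed peroxiredoxin gene, had a difference of 4.52. The albumin genes SESA1, SESA2 and SESA3 were not called, with at most 1.45 FPKM in either pool.

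The promoters of strongly raised genes held the ACGTG core more often than other promoters did, so those of LEA7 and RAB18 are shown. Each is the 300 bases before the annotated gene start in the RefSeq TAIR10.1 assembly, written 5′ to 3′ along the gene's strand, with every ACGTG in capitals, on either strand (CACGT is its reverse complement). LEA7 is read from chr1:19619424-19619723 on the plus strand and RAB18 from chr5:26519448-26519747 on the minus strand.
LEA7: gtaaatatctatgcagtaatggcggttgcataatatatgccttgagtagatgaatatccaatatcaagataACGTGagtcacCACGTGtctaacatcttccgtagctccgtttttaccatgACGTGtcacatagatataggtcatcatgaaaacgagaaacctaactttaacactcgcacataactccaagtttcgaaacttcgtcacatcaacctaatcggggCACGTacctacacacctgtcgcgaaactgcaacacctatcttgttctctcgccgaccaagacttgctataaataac
RAB18: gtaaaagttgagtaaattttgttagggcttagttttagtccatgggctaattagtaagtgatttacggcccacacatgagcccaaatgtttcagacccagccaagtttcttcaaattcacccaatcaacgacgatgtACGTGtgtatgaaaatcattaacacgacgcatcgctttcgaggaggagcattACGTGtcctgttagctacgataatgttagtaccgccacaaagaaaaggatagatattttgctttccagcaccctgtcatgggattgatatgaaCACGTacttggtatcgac
LEA7 held 5 matches, with its CACGTG palindrome counted once on each strand, and RAB18 held 3. ACGTG was found in 27% of the 19495 promoters of tested protein-coding genes, in 34.9% of those called higher at 12 h, in 43% of those also raised by at least 2-fold, and in 63.9% of the 144 raised by at least 8-fold. Among promoters of called lower genes the share was 24%, with 27.1% of those lower by at least 2-fold and 33% of the 100 lower by at least 8-fold. The palindrome CACGTG, which contains ACGTG on both strands, was found in 8.43% of all promoters and in 33.3% of those raised by at least 8-fold. In the LEA list 14 of 20 promoters held ACGTG. A match is a run of letters and was not tested for binding.

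**Figure D1:**
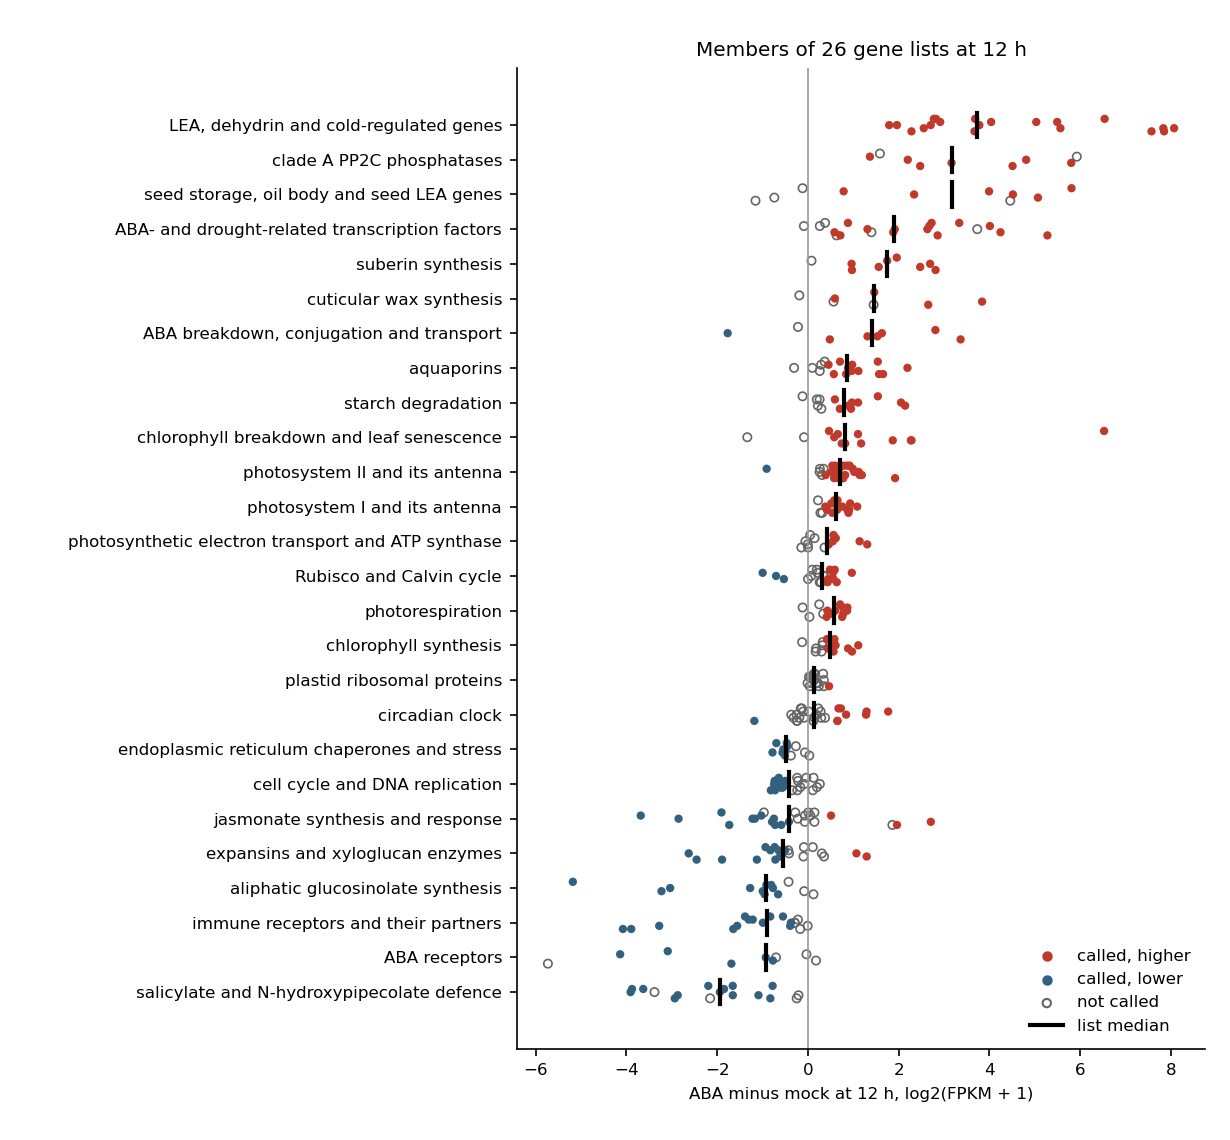
Each point is 1 tested gene of a list, placed by its difference of ABA minus mock at 12 h on the log2(FPKM + 1) scale; filled points were called by the authors' deposited table, open points were not, and black bars are list medians. The LEA list has its median at 3.73 and the salicylate list at -1.94, while the photosynthesis lists sit at small positive values.

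The core of the ABA pathway was shifted in opposite ways at its different steps. Of the 9 tested receptor genes, 5 fell by the authors' deposited table and none rose. PYL4 stood at 9.34 FPKM with ABA and 181 FPKM in mock, PYL5 at 8.98 FPKM with ABA and 83.9 FPKM in mock, and PYR1 at 32.4 FPKM with ABA and 107 FPKM in mock. PYL6 was the receptor gene furthest apart, at 0.0788 FPKM with ABA and 56.3 FPKM in mock, but was not called. The phosphatase genes went the other way, with 7 of 9 called higher by the authors' deposited table. HAI1 stood at 125 FPKM with ABA and 1.25 FPKM in mock, PP2CA at 245 FPKM with ABA and 9.80 FPKM in mock, and ABI2 at 45.7 FPKM with ABA and 4.21 FPKM in mock. AHG1 and HAI3 were 1.59 and 5.93 higher without being called, both with under 0.1 FPKM in mock. Among kinases and bZIP factors 6 of 8 tested genes were called higher by the authors' deposited table. ABF3 had a difference of 1.71, ABF2 of 1.58, ABI5 of 1.03 and OST1, the guard cell SnRK2 kinase, of 0.89.

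Genes that make ABA and genes that remove it both rose. NCED3, which cleaves carotenoids at the rate-limiting step of synthesis, stood at 10.4 FPKM with ABA and 0.367 FPKM in mock. The authors' deposited table called 4 of 6 tested synthesis genes higher, the others being ABA1, ABA4 and AAO3 with differences of 1.28, 0.96 and 0.94. In the breakdown and transport list 6 of 8 genes were called higher and 1 lower by the authors' deposited table. CYP707A1, an ABA 8′-hydroxylase, stood at 108 FPKM with ABA and 9.54 FPKM in mock. The gene called lower was ABCG40, an ABA importer, at 0.143 FPKM with ABA and 2.90 FPKM in mock.

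Genes for transcription factors and downstream metabolism were shifted as well. In the list of drought-related factors 14 of 20 were called higher by the authors' deposited table and none lower, with ATHB7 at 5.28, ATHB12 at 4.24, AFP1 at 4.01 and RD26 at 3.33. P5CS1, the rate-limiting enzyme of proline synthesis, stood at 201 FPKM with ABA and 15.3 FPKM in mock, and SUS3, a sucrose synthase, at 78.2 FPKM with ABA and 5.50 FPKM in mock. The osmolyte list had 7 of 11 genes called higher by the authors' deposited table and 1 called lower, GOLS3, which was listed at 0 with ABA and at 0.583 FPKM in mock. Genes for barrier lipids rose too: 8 of 9 suberin genes and 4 of 7 wax genes were called higher by the authors' deposited table. GPAT5, MYB41 and ASFT led the suberin genes with differences of 2.81, 2.69 and 2.47. KCS2 and CER1 led the wax genes with 3.84 and 2.65. Aquaporin genes, for water channels, had 13 of 18 called higher by the authors' deposited table, with TIP2;3 at 2.19, PIP1;1 at 1.66 and PIP2;1 at 1.57.

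Most genes that answered at 3 h did so in the same direction at 12 h. At 3 h the authors' deposited table called 4961 genes higher (24.8%) and 4021 lower (20.1%). It called 5164 genes at both times, of which 2599 were higher at both and 2298 lower at both. Across the 20034 genes, which are not independent replicates, the differences at 12 h and 3 h had a Pearson correlation of 0.782 and a Spearman correlation of 0.672. The Pearson value was 0.439 with 0.5 h, 0.539 with 1 h, 0.848 with 6 h, 0.9 with 9 h and 0.836 with 24 h. The LEA list had a median of 5.66 at 3 h and 3.73 at 12 h, and the phosphatases 4.40 at 3 h and 3.16 at 12 h.

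A small group changed sides. The authors' deposited table called 187 genes lower at 3 h and higher at 12 h (0.933% of tested genes), and 80 genes higher at 3 h and lower at 12 h (0.399%). Together they were 5.17% of the genes called at both times. Only 1 of the 187 and 9 of the 80 were at least 2-fold apart at both times. The difference between the 2 times was not tested.

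**Figure D2:**
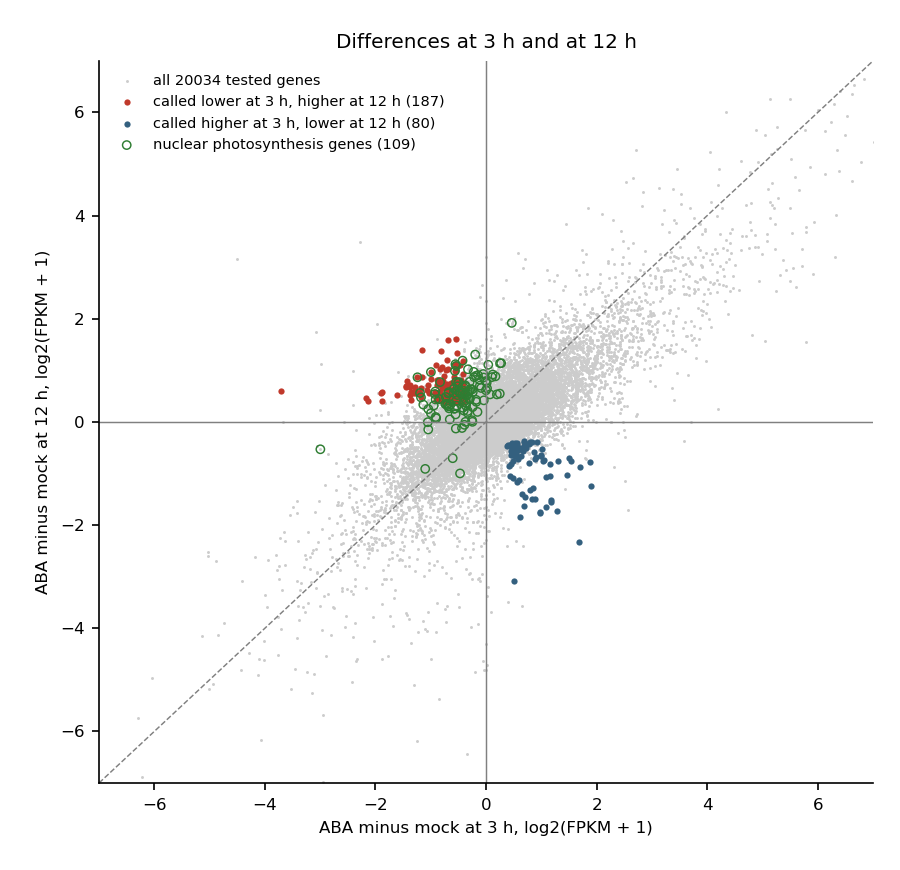
Each grey point is 1 of 20034 tested genes, placed by its difference of ABA minus mock at 3 h (across) and at 12 h (up), both on the log2(FPKM + 1) scale; red and blue mark the 187 and 80 genes called in opposite directions, and green rings mark 109 nuclear photosynthesis genes. Most rings lie left of 0 at 3 h and above 0 at 12 h; 17 genes lie beyond the axis limits of 7, and the dashed line marks equal differences.

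Nuclear photosynthesis genes were called mostly lower at 3 h and mostly higher at 12 h. Over 109 tested genes of 6 lists (photosystem II, photosystem I, electron transport, the Calvin cycle, photorespiration and chlorophyll synthesis), the authors' deposited table called 72 higher and 4 lower at 12 h, and 1 higher and 58 lower at 3 h. The median difference was -0.41 at 3 h and 0.54 at 12 h. For all tested genes it was 0.03 at 3 h and -0.01 at 12 h. Of the 109 genes 29 were called in opposite directions at the 2 times, all of them lower at 3 h and higher at 12 h. The difference was larger at 12 h than at 3 h in 107 genes, than at 9 h in 108 and than at 24 h in 94.

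For the 109 genes together, the mock pools had the larger median change between 3 h and 12 h. The ABA pools did not move alike over the 6 lists. The median level of the 109 genes was 680 FPKM with ABA and 1077 FPKM in mock at 3 h, and 911 FPKM with ABA and 567 FPKM in mock at 12 h. The ABA pool was higher at 12 h than at 3 h in 65 of 109 genes, with a median change of 0.20. The mock pool was lower at 12 h than at 3 h in 106 of 109 genes, with a median change of -0.75. In the photosystem lists the median ABA change was below 0, at -0.06 for photosystem II and -0.25 for photosystem I, where the mock change was -1.13 and -1.04. The median ABA change was above 0 in the other lists, at 0.34 for electron transport, 0.42 for the Calvin cycle, 0.47 for photorespiration and 0.57 for chlorophyll synthesis. Their median mock changes were -0.62, -0.62, -0.61 and -0.35 in the same order. In chlorophyll synthesis alone the ABA change was thus the larger in size. In mock the median level went down at each time up to 12 h, with 1730, 1459, 1077, 780, 717 and 567 FPKM, and stood at 841 FPKM at 24 h. With ABA the lowest median was 532 FPKM at 6 h, and the later values were 645, 911 and 1016 FPKM.

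The calls followed the medians. The authors' deposited table called 58 of the 109 genes lower at 6 h and 33 at 9 h, when 3 and 6 were called higher. At 24 h 31 were called higher and 13 lower. For all tested genes the calls at 9 h were 17.7% higher and 18.4% lower, and at 24 h 19.2% higher and 18.7% lower. Photosynthesis genes made up 14.4% of the summed FPKM with ABA and 11.7% in mock at 12 h, against 14.9% with ABA and 20.8% in mock at 3 h. Of the 5 green shoot markers, LHCB3, CAB1 and RCA were called higher at 12 h, and these are themselves members of the lists.

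**Figure D3:**
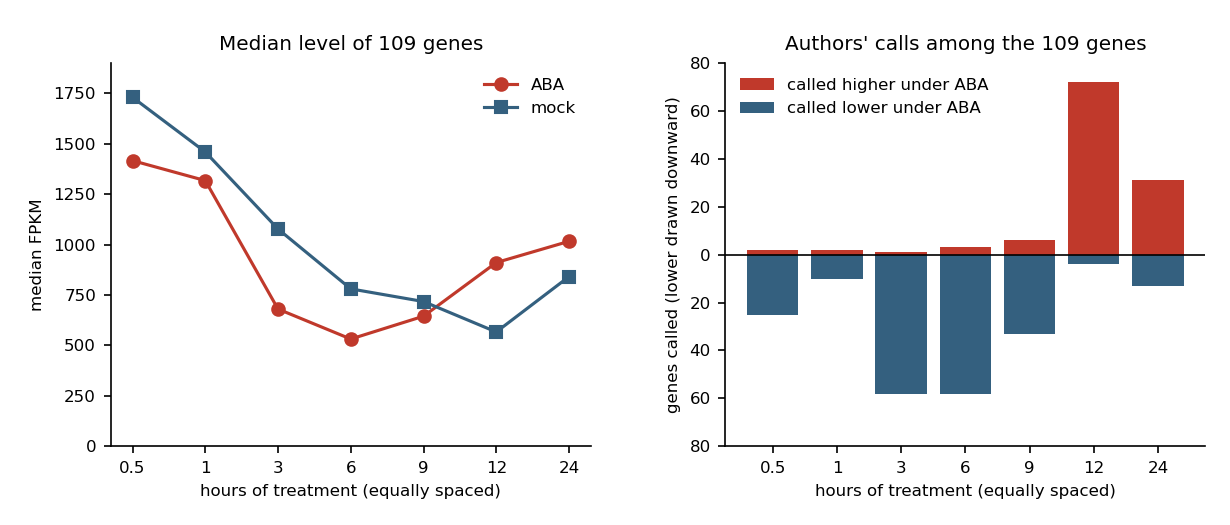
The left panel gives the median FPKM of 109 nuclear photosynthesis genes with ABA and in mock at 7 times, and the right panel gives how many of them were called higher or lower by the authors' deposited table. The mock line keeps going down until 12 h, at 567 FPKM, while the ABA line has its lowest point at 6 h, and 12 h has the most genes called higher, 72.

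Light-harvesting and photosystem genes had the largest rises among them. Of 26 photosystem II genes 21 were called higher by the authors' deposited table and 1 lower, with a median of 0.70. LHCB1.4, an antenna gene, stood at 785 FPKM with ABA and 207 FPKM in mock, LHCB1.5 at 3479 FPKM with ABA and 1579 FPKM in mock, and PSBO2, of the oxygen-evolving complex, at 1163 FPKM with ABA and 510 FPKM in mock. LHCB4.2 had a difference of 1.12. LHCB4.3 went against the list, with 23.4 FPKM with ABA and 44.9 FPKM in mock. The LHCB1 and LHCB2 copies are near-identical, so the split between them is uncertain. In photosystem I 15 of 18 genes were called higher by the authors' deposited table and none lower, led by LHCA6 at 1.09, LHCA2 at 0.93, LHCA5 at 0.91 and LHCA4 at 0.89. For electron transport 7 of 14 were called higher and none lower by the authors' deposited table. PGRL1A, of cyclic electron flow, had a difference of 1.31 and PETE1, a plastocyanin, of 1.14, whereas PETC, PETM, FD1 and FNR2 stood within 0.06 of mock.

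Among antenna genes LHCB2.3 combined the largest fall at 3 h with a called rise at 12 h, and its promoter, picked after these values were seen, is shown with ACGTG in capitals on either strand. It is the 300 bases before the gene start at chr3:10255606-10255905, plus strand, TAIR10.1.
LHCB2.3: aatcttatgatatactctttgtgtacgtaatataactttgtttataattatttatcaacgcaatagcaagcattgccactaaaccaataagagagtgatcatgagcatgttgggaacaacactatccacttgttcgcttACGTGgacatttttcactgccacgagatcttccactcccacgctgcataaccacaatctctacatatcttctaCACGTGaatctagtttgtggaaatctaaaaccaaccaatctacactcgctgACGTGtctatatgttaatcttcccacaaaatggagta
LHCB2.3 stood at 172 FPKM with ABA and 408 FPKM in mock at 3 h, and at 173 FPKM with ABA and 94.5 FPKM in mock at 12 h. The ABA level was thus nearly the same at both times, while the mock level was lower at 12 h. Its promoter held 4 matches of ACGTG, among them a CACGTG palindrome counted once on each strand. The core was found in 38.5% of the 109 photosynthesis promoters, CACGTG in 16.5% and the evening element AAATATCT in 3.67%, against 27%, 8.43% and 5.88% of all promoters (both strands searched). Over the 184 promoters of genes that, as LHCB2.3, turned upward, the shares were 30.4%, 5.43% and 7.07%.

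Genes of carbon fixation were mixed. In the Calvin cycle list 8 of 20 genes rose and 3 fell by the authors' deposited table at 12 h, where 16 had fallen at 3 h. CP12-2, a regulator of the cycle, stood at 626 FPKM with ABA and 320 FPKM in mock at 12 h, and at 179 FPKM with ABA and 358 FPKM in mock at 3 h. RCA, the Rubisco activase, stood at 3660 FPKM with ABA and 2431 FPKM in mock at 12 h, and at 2498 FPKM with ABA and 4717 FPKM in mock at 3 h. The 3 genes that fell at 12 h encode the small subunit of Rubisco. RBCS3B stood at 2227 FPKM with ABA and 4449 FPKM in mock, RBCS2B at 1289 FPKM with ABA and 2099 FPKM in mock, and RBCS1B at 1615 FPKM with ABA and 2332 FPKM in mock. RBCS1B had been furthest apart at 3 h, at 311 FPKM with ABA and 2489 FPKM in mock. The most abundant copy, RBCS1A, was not called, at 12797 FPKM with ABA and 10487 FPKM in mock. These copies share sequence, so their single values are uncertain.

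Photorespiration and chlorophyll synthesis genes had calls that were all lower at 3 h and all higher at 12 h. The genes called in opposite directions at the 2 times were 4 of 14 in photorespiration and 5 of 17 in chlorophyll synthesis, beside 9 of 26 in photosystem II, 3 of 18 in photosystem I, 1 of 14 in electron transport and 7 of 20 in the Calvin cycle. In photorespiration 10 of 14 genes rose and none fell by the authors' deposited table at 12 h, where 7 had fallen and none risen at 3 h. GLDP1, of the glycine decarboxylase, had a difference of 0.87, the catalase gene CAT2 of 0.86, GGT1 of 0.78 and HPR1 of 0.77. In chlorophyll synthesis 11 of 17 tested genes rose and none fell by the authors' deposited table at 12 h, where 10 had fallen at 3 h. PORC and PORB, the light-dependent reductases, had differences of 1.11 and 0.88, and CAO, which makes chlorophyll b, of 0.97.

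**Figure D4:**
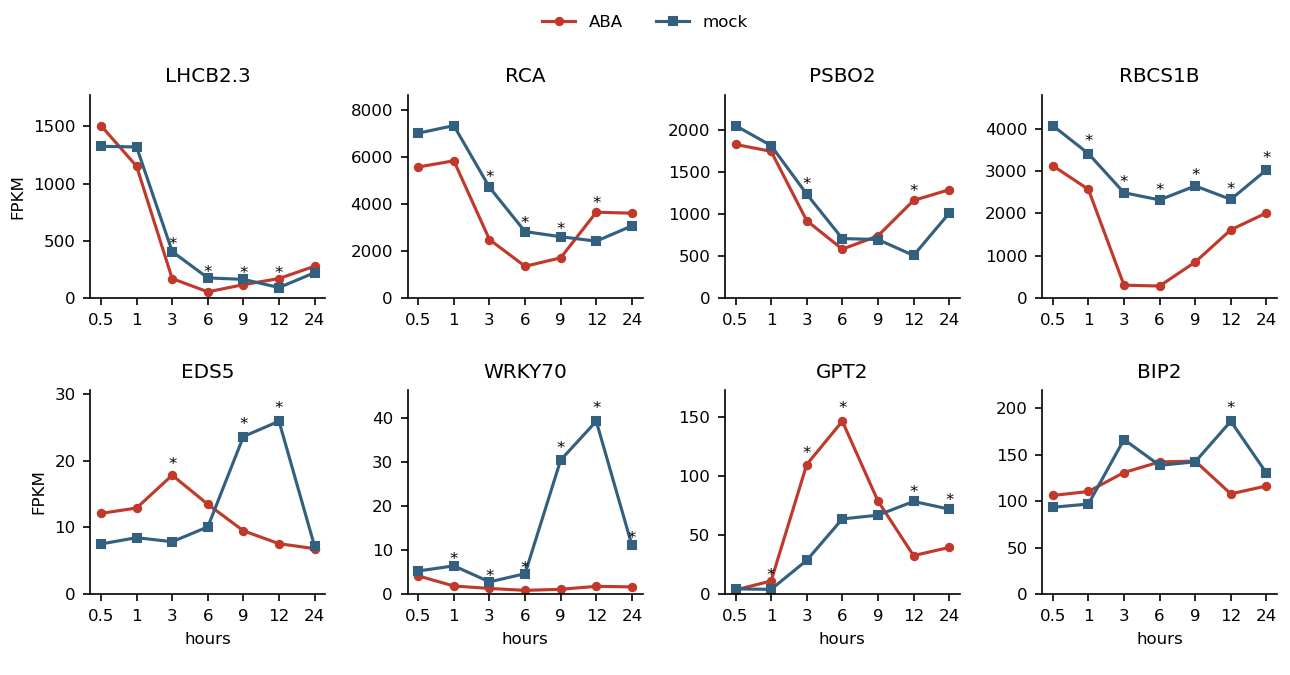
FPKM of 8 genes, picked after their values were seen, with ABA and in mock at 7 times (equally spaced); an asterisk marks a time at which the gene was called by the authors' deposited table. The lines of RCA cross between 9 and 12 h and those of PSBO2 between 6 and 9 h, RBCS1B stays lower with ABA, and the mock lines of EDS5 and WRKY70 peak at 12 h, at 25.9 and 39.2 FPKM.

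Other chloroplast genes had other patterns. All 17 plastid ribosomal protein genes were called lower at 3 h by the authors' deposited table, and at 12 h only PRPL13 was called, as higher, with a list median of 0.14 that became -0.03 when pools were scaled to the same total. Genes of the plastid genome had been higher at 3 h already: 9 of 13 tested were called higher at 3 h and 7 at 12 h by the authors' deposited table. ATCG00020 stood at 12.6 FPKM with ABA and 8.44 FPKM in mock at 12 h, and at 32.5 FPKM with ABA and 8.41 FPKM in mock at 3 h. The plastid genome list was low in level, with its 14 genes summing to 58.4 FPKM with ABA and 31.6 FPKM in mock at 12 h. Its 12 h median of 0.75 depended on the pseudocount, and became 1.02 with 0.1 and 0.21 with 10.

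Regulators of light responses went both ways at 12 h, with 9 of 26 called higher and 5 lower by the authors' deposited table. Over all tested genes the calls at 12 h were 18.7% higher and 17.9% lower. PIF4, a phytochrome-interacting factor, stood at 15.7 FPKM with ABA and 3.51 FPKM in mock, and BBX31 at 39.8 FPKM with ABA and 11.2 FPKM in mock. The fallen genes were HY5 and HYH, which promote light-driven development, CGA1, a GATA factor of chloroplasts, and the light-stress genes ELIP1 and ELIP2. ELIP2 stood at 321 FPKM with ABA and 586 FPKM in mock. GLK1 and GLK2, activators of the photosynthesis genes, were called lower at 3 h, with differences of -0.88 and -0.79, and were not called at 12 h, with 0.33 and 0.30. SIG1, a sigma factor of the plastid polymerase, turned, with -0.43 at 3 h and 0.50 at 12 h.

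Genes of leaf ageing and of reserve use rose beside the photosynthesis genes. At 12 h the calls over all tested genes were 18.7% higher and 17.9% lower. In the chlorophyll breakdown and senescence list 11 of 13 tested genes were called higher by the authors' deposited table and none lower. SWEET15, a sugar exporter of ageing leaves, stood at 338 FPKM with ABA and 2.68 FPKM in mock, and PAO, which opens the chlorophyll ring, at 123 FPKM with ABA and 24.7 FPKM in mock. The senescence factor NAP had a difference of 2.28. Of 14 tested starch degradation genes 9 were called higher by the authors' deposited table and none lower, with the maltose exporter MEX1 at 2.14, the amylase BAM1 at 2.05 and the debranching enzyme ISA3 at 1.54. Of 27 clock genes 8 were called higher and 1 lower by the authors' deposited table, and the median of 0.14 became -0.02 when pools were scaled to the same total. CDF1 had a difference of 1.77, BOA of 1.29 and RVE1 of 1.28, and RVE7 was the gene called lower, at -1.18.

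By rule the 10 genes with the largest turn upward were named. AT4G36850, a PQ-loop membrane protein gene, stood at 4.48 FPKM with ABA and 70.8 FPKM in mock at 3 h, and at 80.7 FPKM with ABA and 53.1 FPKM in mock at 12 h. FRO7, a chloroplast ferric reductase gene, stood at 0.591 FPKM with ABA and 5.96 FPKM in mock at 3 h, and at 10.6 FPKM with ABA and 7.77 FPKM in mock at 12 h. BXL1, a cell wall xylosidase gene, stood at 45.6 FPKM with ABA and 80.5 FPKM in mock at 3 h, and at 131 FPKM with ABA and 49.7 FPKM in mock at 12 h. AT4G36850 moved mostly in the ABA pools, and BXL1 in both. The others were AT2G29340, AT5G48490, PDX1L4, AT1G22630, AT2G26695, COL2 and AT2G29290, with differences of 0.40 to 1.59 at 12 h. AT2G29340 and AT2G29290 lie in the same region of chromosome 2 and have related annotations.

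Over all 187 genes that turned upward, chosen by these same values, the median difference was -0.63 at 3 h and 0.57 at 12 h. The ABA pool was higher at 12 h than at 3 h in 95.7% of them, with a median change of 0.95, and the mock pool was lower in 76.5%, with a median change of -0.35. For all tested genes the shares were 45.8% and 45.2%. At 9 h the authors' deposited table called 13 of the 187 higher and 32 lower, and at 24 h 51 higher and 25 lower.

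The 10 genes with the largest turn downward were named by the same rule. GPT2, the plastid glucose 6-phosphate translocator, stood at 110 FPKM with ABA and 28.6 FPKM in mock at 3 h, and at 32.6 FPKM with ABA and 78.5 FPKM in mock at 12 h. LOX2, a lipoxygenase of jasmonate synthesis, stood at 189 FPKM with ABA and 76.5 FPKM in mock at 3 h, and at 55.3 FPKM with ABA and 186 FPKM in mock at 12 h. UGT76B1, which attaches glucose to defence compounds, stood at 55.7 FPKM with ABA and 27.9 FPKM in mock at 3 h, and at 45.0 FPKM with ABA and 153 FPKM in mock at 12 h. The first 2 of these were lower with ABA and higher in mock at 12 h than at 3 h, and in UGT76B1 the mock pool moved most. EXPA17, an expansin gene, stood at 12.3 FPKM with ABA and 4.89 FPKM in mock at 3 h, and at 2.34 FPKM with ABA and 8.83 FPKM in mock at 12 h. The others were AT1G21525, AT3G60420, EDS5, AT2G32190, AT2G32210 and AT5G47330, with differences of -3.08 to -0.78 at 12 h. AT2G32190 and AT2G32210 lie close together on chromosome 2 and have the same annotation.

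Over all 80 genes that turned downward, chosen by these same values, the median difference was 0.69 at 3 h and -0.65 at 12 h. The ABA pool was lower at 12 h than at 3 h in all 80, with a median change of -1.01, and the mock pool was higher in 78.8%, with a median change of 0.32. For all tested genes the shares were 53.9% and 54.5%. At 9 h 3 of the 80 were called higher and 27 lower by the authors' deposited table, and at 24 h 2 higher and 37 lower.

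**Figure D5:**
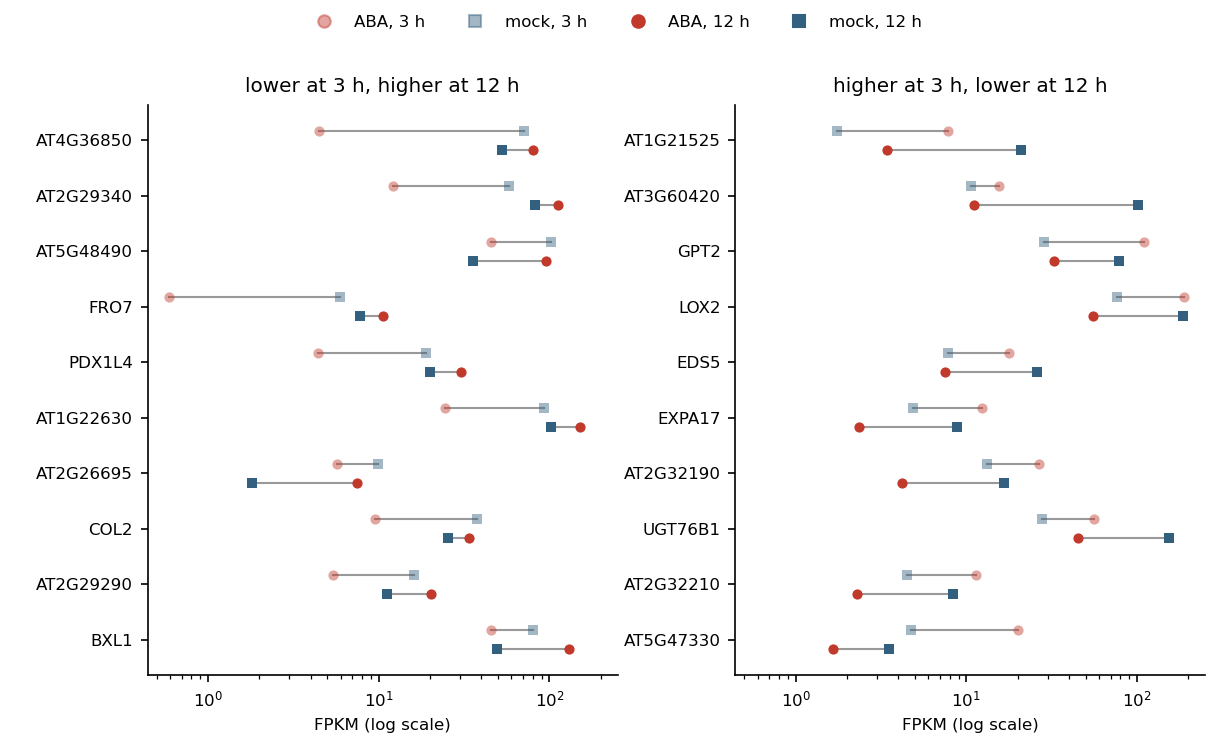
FPKM (log scale) of the 10 genes with the largest turn in each direction; circles are ABA and squares mock, pale symbols 3 h and full symbols 12 h, and grey lines join the 2 pools of a time. On the left the ABA circle lies below its mock square at 3 h and above it at 12 h, as for FRO7 at 10.6 against 7.77 FPKM, and on the right the order is the opposite at both times.

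Genes tied to defence were among the deepest falls at 12 h. EARLI1 and AT4G12490, neighbouring lipid transfer family genes, stood at 13.1 FPKM with ABA and 1657 FPKM in mock, and at 0.945 FPKM with ABA and 569 FPKM in mock; their sequences are alike, so the split is uncertain. AIG1, a gene induced by a bacterial effector, stood at 0.251 FPKM with ABA and 90.3 FPKM in mock. The glutathione transferase gene GSTF7 stood at 3.27 FPKM with ABA and 218 FPKM in mock. The others were the lectin gene AT3G16530 at -6.17, the RPW8 homolog HR4 at -5.25, MAM3 at -5.18, the EF-hand gene AT3G47480 at -5.10 and the peroxidase genes AT5G64120 and AT5G39580 at -5.08 and -5.05. For AIG1 the mock pool held 1.90 FPKM at 3 h, and the ABA pool 0.217 FPKM.

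Salicylate genes were called lower more fully at 12 h than at 3 h. Of 17 tested genes of the salicylate and N-hydroxypipecolate list 13 were called lower and none higher by the authors' deposited table at 12 h, median -1.94, where 5 were lower and 2 higher at 3 h and 13 lower at 9 h. ICS1, which makes the salicylate precursor, stood at 4.88 FPKM with ABA and 43.9 FPKM in mock. PBS3, which acts on that precursor, stood at 0.366 FPKM with ABA and 19.5 FPKM in mock, and FMO1, which makes N-hydroxypipecolate, at 0.287 FPKM with ABA and 14.9 FPKM in mock. WRKY70, a salicylate-responsive factor, stood at 1.74 FPKM with ABA and 39.2 FPKM in mock.

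The mock pools carried much of this. Over the list the median change between 3 h and 12 h was 0.11 with ABA and 1.63 in mock. In mock ICS1 stood at 8.28 FPKM at 3 h, 15.6 FPKM at 6 h, 55.8 FPKM at 9 h, 43.9 FPKM at 12 h and 10.3 FPKM at 24 h, while with ABA it stayed between 3.42 and 5.73 FPKM at all 7 times. WRKY70 in mock peaked at 12 h, and FMO1 likewise.

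EDS5, which exports the salicylate precursor from the chloroplast, was the member that turned. It stood at 17.8 FPKM with ABA and 7.84 FPKM in mock at 3 h, and at 7.54 FPKM with ABA and 25.9 FPKM in mock at 12 h. Its promoter is shown for the W-box letters TTGACC or TTGACT, in capitals on either strand (chr4:18185137-18185436, plus strand, TAIR10.1).
EDS5: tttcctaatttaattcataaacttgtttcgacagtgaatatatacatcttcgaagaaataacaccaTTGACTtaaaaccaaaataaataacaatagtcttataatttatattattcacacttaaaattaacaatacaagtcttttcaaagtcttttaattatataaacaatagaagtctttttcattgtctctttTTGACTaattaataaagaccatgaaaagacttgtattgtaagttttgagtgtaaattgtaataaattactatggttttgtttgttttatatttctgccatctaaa
EDS5 held 2 matches and no ACGTG. The W-box letters were found in 32% of all promoters, in 35.2% of those called lower at 12 h, in 41.4% of those lower by at least 2-fold and in 29% of those called higher. Among the 17 salicylate promoters the share was 23.5%, and among the 78 promoters of genes that turned downward 38.5%.

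Genes for immune receptors and of related pathways were mostly lower as well. Of 18 genes of the immune receptor list 13 were called lower and none higher by the authors' deposited table, and the median was -0.91. WAK1, a wall-associated kinase gene, stood at 2.64 FPKM with ABA and 60.4 FPKM in mock, and FRK1, a marker of pattern-triggered immunity, at 0.431 FPKM with ABA and 20.3 FPKM in mock. The flagellin receptor gene FLS2 stood at 3.28 FPKM with ABA and 12.4 FPKM in mock. Among 25 tested jasmonate genes 12 were called lower and 3 higher by the authors' deposited table. ORA59, which drives the defensin branch, stood at 0.308 FPKM with ABA and 15.8 FPKM in mock, and its target PDF1.2 was listed at 0 with ABA and at 6.22 FPKM in mock. The genes called higher were VSP1, VSP2 and JAZ12, of the wound branch and its repressors. VSP2 had a difference of 2.71.

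Genes of aliphatic glucosinolate synthesis fell too, with 10 of 13 called lower and none higher by the authors' deposited table (median -0.92). MAM3, which lengthens the methionine side chain, stood at 1.85 FPKM with ABA and 102 FPKM in mock, BCAT4, which acts at the first step of that pathway, at 12.8 FPKM with ABA and 113 FPKM in mock, and CYP79F2 at 2.60 FPKM with ABA and 32.8 FPKM in mock. CYP79F1, whose sequence is close to CYP79F2, was not called, at 21.4 FPKM with ABA and 19.5 FPKM in mock. At 3 h 11 of the 13 had been called lower.

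Genes called at 12 h and at no other of the 7 times were few. The authors' deposited table called 267 such genes higher (1.33% of tested genes) and 271 lower (1.35%), and 37 of them were at least 2-fold apart. NdhL, a subunit of the chloroplast NDH complex, stood at 226 FPKM with ABA and 102 FPKM in mock, and AT2G04039 at 123 FPKM with ABA and 55.5 FPKM in mock. AT3G19800 and the SAUR family gene AT1G29500 had differences of 1.22 and 1.15. AT1G51035, annotated as uncharacterized, was listed at 10.2 FPKM with ABA and at 0 in mock. Among the genes lower at 12 h alone, PUB54, a ubiquitin ligase gene, stood at 0.154 FPKM with ABA and 13.9 FPKM in mock, but at 9 h it was nearly as far apart and not called. The others by rule were AT5G01215, AT5G50665, AT3G06035 and AT5G01445, with differences of -1.53 to -0.81.

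Chaperones of the endoplasmic reticulum had more members called at 12 h than at 3, 9 or 24 h. Of 12 tested genes 8 were called lower and none higher by the authors' deposited table, and the median was -0.48. At 3 h 1 was lower and 2 higher, at 9 h none was called and the median was 0.00, and at 24 h 3 were lower and 1 higher. BIP2, the main luminal HSP70, stood at 108 FPKM with ABA and 186 FPKM in mock at 12 h, and at 143 FPKM with ABA and 142 FPKM in mock at 9 h. ERDJ3B, its co-chaperone, stood at 47.2 FPKM with ABA and 77.1 FPKM in mock at 12 h. PDIL1-1 and HSP90.7 had differences of -0.56 and -0.54.

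The authors' calls and the size of a difference did not always go together. At 12 h 308 tested genes were at least 2-fold apart but not called by the authors' deposited table, and in 242 of these the lower pool held under 1 FPKM. Besides LTP4, the largest were BGLU24 and AT3G56275 with differences of 6.41 and 6.36, and AT4G12500, AT3G22235 and PYL6 with -6.97, -6.44 and -5.73. AT3G22235 stood at 0.649 FPKM with ABA and 142 FPKM in mock. The sources used here do not say how the calls were made.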

How the data were processed

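RNA was sequenced from 28 seedling libraries, 2 per treatment and time. FastQC and STAR, with TAIR10, are named in the submitters' processing notes. In the deposited table each of 33557 entries has 1 FPKM per group, taken from the column names to cover both libraries. No header names this unit, and it was read from the values. The deposited yes/no columns are the authors' calls at each time. Not given in the sources used here: quantifier, strand setting, way of pooling, test and threshold.

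Differences were taken as log2 of FPKM with a pseudocount of 1, for 20034 genes reaching 1 FPKM in 2 or more of 14 pools, with Python 3.11.15, pandas 2.3.3, numpy 2.4.6 and scipy 1.17.1 (matplotlib 3.10.9 for plots), after the steps were tested on simulated data. In 8288 entries all pools were at 0. Names came from RefSeq TAIR10.1, which matched 32813 entries. The planned fit per library could not be run, because the table holds pools.

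Genes were named by rule: the 10 largest called differences each way, the 10 largest turns each way, the 5 largest called at 12 h alone and the 3 largest not called, all with a mean of at least 5 FPKM, and up to 4 per list with any member called against its list. Uncalled list members named beside them were chosen after their values were seen. The 43 gene lists, 4 marker lists and these members were chosen with earlier results of these data known. Promoter windows of 300 bases, read from the RefSeq genome, and the genes shown for them were chosen after values were seen. Alternatives were other pseudocounts (0.1 and 10), no filter, a filter of 5 FPKM, scaling or centring of pools, and other times. The depth implied by the steps between low values was 45.3 (in units of 1e6 fragments) for each 12 h pool, with 250 bases taken off each transcript length. It may reflect the scaling of the levels and not the sequencing depth.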

Additional observations from a re-analysis of the deposited data

Results flagged for a closer look

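The direction of the ABA difference at 12 h was opposite to that at 3 h in 187 genes called lower at 3 h and higher at 12 h, and in 80 genes called higher at 3 h and lower at 12 h, by the authors' deposited table. The difference between the times was not tested, since each group has 1 pooled value. Differences of differences (12 h minus 3 h, log2 scale) of the 10 largest upward turns were 4.31 for AT4G36850, 2.63 for AT2G29340, 2.55 for AT5G48490, 2.53 for FRO7, 2.47 for PDX1L4, 2.45 for AT1G22630, 2.28 for AT2G26695, 2.27 for COL2, 2.22 for AT2G29290 and 2.18 for BXL1. For the 10 largest downward turns they were -4.01 for AT1G21525, -3.58 for AT3G60420, -3.15 for GPT2, -3.02 for LOX2, -2.74 for both EDS5 and EXPA17, -2.73 for AT2G32190, -2.72 for UGT76B1, -2.69 for AT2G32210 and -2.65 for AT5G47330.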

How the results depend on the processing

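No paired analysis was possible because the deposited columns are pools that carry no replicate numbers, and for the same reason no library could be left out and no fit per library run. With a pseudocount of 10 in place of 1, the counts called and at least 2-fold apart at 12 h became 618 higher and 301 lower, by construction, since it shrinks differences of low genes. Genes lower at 3 h and higher at 12 h numbered 1 when 2-fold differences were asked at both times beside the calls, 6 when 2-fold differences were asked whatever the calls, 18 with 9 h in place of 12 h and 110 with 6 h in place of 3 h. Genes higher at 3 h and lower at 12 h numbered 9, 12, 41 and 27 under these settings. Scaling pools to the same total turned the median of the plastid ribosomal list to -0.0292 and that of the circadian clock list to -0.0219. The nuclear photosynthesis median ran between 0.37 (scaled) and 0.55 (centred). It also changed the sign of 4 medians that were within 0.1 of 0 as deposited: heat shock became -0.13, auxin -0.14, microRNA targets -0.09 and root markers -0.07. Over all alternatives 251 values of list medians, these 4 among them, moved by less than 0.25 and 34 by more. Depth limits genes near 0 FPKM, where most uncalled 2-fold differences lie.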

Other observations

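Iron genes split by role at 12 h, and 6 of 10 were called higher and 4 lower by the authors' deposited table. IRT1, the root iron transporter, stood at 0.134 FPKM with ABA and 26.9 FPKM in mock, and its reductase partner FRO2 and regulator FIT had differences of -2.07 and -1.61. The upstream factors BHLH38, BHLH101 and BHLH100 had differences of 2.74, 2.47 and 2.41. IRT1 was not called at 24 h, at 8.89 FPKM with ABA and 9.34 FPKM in mock. Anthocyanin genes were higher, with DFR at 2.25, UF3GT at 2.23, MYB75 at 1.85 and TT8 at 1.81, whereas MYB111 and MYB12, activators of flavonols, fell with -1.62 and -0.99 and FLS1, flavonol synthase, with -0.49. Over that list 7 of 14 were called higher and 3 lower by the authors' deposited table.

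Of 22 cell cycle genes 10 were called lower and none higher by the authors' deposited table, among them PCNA1 at -0.82 and the helicase subunits MCM2 to MCM7 at -0.75 to -0.63. Of 20 expansin and xyloglucan genes 11 were called lower and 2 higher, with XTH20 at -2.63, EXPA1 at -2.45 and EXPA8 at -1.89, against XTH19 at 1.29 and EXPA11 at 1.07. Type-A cytokinin regulators had 5 of 9 called lower, led by ARR7 at -1.71, and 1 higher, ARR9 at 0.47. For auxin 3 of 16 tested genes were called higher and 2 lower by the authors' deposited table (median 0.01). For gibberellin 6 of 13 were called higher and 2 lower (median 0.21). Over all tested genes 18.7% were called higher and 17.9% lower.

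Stress lists other than drought went apart, and over all tested genes 18.7% were called higher and 17.9% lower. Touch genes had 7 of 10 called lower and none higher by the authors' deposited table, with CML12 at 4.14 FPKM with ABA and 117 FPKM in mock. Hypoxia genes had 4 of 10 lower, HRE2 at -2.45 among them, and 1 higher, ADH1 at 2.48. Heat shock genes had 3 higher and 3 lower of 10 (median 0.01). HSP22 was listed at 38.3 FPKM with ABA and at 0 in mock, and HSP90.1 stood at 8.08 FPKM with ABA and 57.4 FPKM in mock. Of 8 indole glucosinolate and camalexin genes 4 were called lower, PAD3 at -2.82 and CYP81F2 at -2.59 among them, and 1 higher, MYB34 at 1.22. Nitrate genes had 3 of 7 higher, NIA2 at 0.83 among them, and none lower. The dark-induced genes SEN1 and ASN1 turned, SEN1 with 27.4 FPKM with ABA and 11.4 FPKM in mock at 12 h after a 3 h difference of -0.70, and DIN10 was called lower at both times. Of 55 tested microRNA target genes 12 were called higher and 6 lower (median 0.07), beside 18.7% and 17.9% over all tested genes. NFYA5 at 2.35 and LAC17 at 1.85 stood against the superoxide dismutase genes CSD1 and CSD2 at -1.52 and -1.46.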
